A study of Mus musculus with 12 samples.

Results

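The mRNAs of 77 cytosolic ribosomal proteins were followed in immortalized fibroblasts from mouse embryos in which all 3 small Maf genes are deleted (MafF-/-::MafG-/-::MafK-/-). A gene was included if its symbol had the form Rpl or Rps with a number and an optional a, x or l, or was Rplp0, Rplp1, Rplp2 or Rpsa, and if it had at least 10 fragments in each of the 12 libraries. The symbols matched 81 of the 24318 genes of the table, and 77 of these, 46 of the large (60S) subunit and 31 of the small (40S) subunit, met the fragment minimum. The 4 groups, of 3 libraries each, were T-N2G cells with DEM, T-N2G cells with vehicle, mock cells with DEM and mock cells with vehicle. All cells carried the triple small Maf deletion. T-N2G cells in addition expressed a heterodimer in which Nrf2 and MafG are joined by a tether, and mock cells did not. DEM, diethyl maleate, is an electrophile that depletes glutathione, and it was given at 100 µM for 12 h. The sources used here do not give the promoter of T-N2G, what the mock cells received or whether either population is 1 clone.

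Each cytosolic ribosome is built from ribosomal RNA and a set of proteins of which nearly all are present in a single copy, so the proteins are needed in equal amounts. Most of these mRNAs begin with a C followed by a run of pyrimidines, the 5' terminal oligopyrimidine (TOP) motif, through which mTORC1 and the RNA-binding protein Larp1 control their translation and stability. In growing fibroblasts they are among the most abundant mRNAs of the cell, and ribosome production is one of the main costs of growth.

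The start of a few of these mRNAs shows the motif directly. RefSeq (GRCm38.p6) start windows were found for 57 of the 77 genes, as 68 windows of 250 bases before to 50 after an annotated start. Of the 68 windows, 13 (19.1%) had a C followed by at least 4 C or T at the annotated start itself, against 823 (2.51%) of all 32851 windows. Annotated starts can lie a few bases from the true ones, and the letters CTTTC, read on the gene's strand in the 50 bases after the start, stood in 26 windows (38.2%), against 5.95% of all windows. Shown are 6 starts, 15 bases before and 20 from the start on, with the pyrimidine run in capitals, chosen because they cover different sizes of DEM effect described below.
Rpl15: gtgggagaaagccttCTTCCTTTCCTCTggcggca
Rps21: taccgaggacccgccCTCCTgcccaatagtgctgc
Rps6: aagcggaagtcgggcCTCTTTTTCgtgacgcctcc
Rps18: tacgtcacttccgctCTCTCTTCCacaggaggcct
Rpl38: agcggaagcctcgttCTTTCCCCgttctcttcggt
Rpl28: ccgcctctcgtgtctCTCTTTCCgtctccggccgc
These are at chr14:18270967-18271001 (minus strand), chr2:180257364-180257398 (plus strand), chr4:86857348-86857382 (minus strand), chr17:33955646-33955680 (minus strand), chr11:114668565-114668599 (plus strand) and chr7:4792950-4792984 (plus strand), in the order listed. The antioxidant response element letters TGACNNNGC, which Nrf2 with a small Maf binds, were present on either strand in 12 of the 68 windows (17.6%) and in 12.4% of all windows. The E-box letters CACGTG stood in 8 windows (11.8%) and in 7.15% of all windows. These matches are descriptions of letters and not of binding.

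Library totals lay between 18863560 and 23095692 fragments. Mafg, part of the T-N2G construct, was at 95.7 to 136 CPM (fragment counts scaled to a common library size) in T-N2G cells with DEM and at 106 to 161 CPM in T-N2G cells with vehicle, against 0.820 to 0.932 CPM in mock cells with DEM and 0.472 to 0.550 CPM in mock cells with vehicle. Maff and Mafk, which the labels give as deleted in all groups, were recorded at 3.08 to 5.02 CPM and 1.42 to 2.58 CPM in T-N2G cells and at 3.35 to 5.69 CPM and 1.75 to 2.68 CPM in mock cells. Which parts of these genes the deletions remove is not given in the sources used here. Of 14 fibroblast markers 12 passed the filter on low counts, while Lum and Fap were near 0. The epithelial marker Epcam, the endothelial markers Pecam1 and Cdh5 and the leukocyte marker Ptprc were also near 0. Some other markers of these cell types were not. The epithelial marker Krt19 had group means between 77.8 and 119 CPM, and the endothelial marker Kdr between 4.37 and 8.84 CPM. Of the neural markers, Nes had group means between 381 and 433 CPM and Map2 between 37.9 and 58.0 CPM, while Sox2 and Gfap were near 0. The fibroblast markers summed to 12599 to 15831 CPM in T-N2G cells with DEM, 15754 to 20446 CPM in T-N2G cells with vehicle, 15021 to 18138 CPM in mock cells with DEM and 16058 to 19659 CPM in mock cells with vehicle. In bulk RNA, fewer cells of a type and less RNA per cell cannot be told apart. Nothing in the labels ties a replicate to a culture of its own, so p-values measure the spread between these libraries only. Replicates 1 and 2 carry library codes of one series and replicate 3 of another, and libraries with the same number deviated together, so each comparison is given without and with the replicate number as a block in the edgeR fit.

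The ribosomal protein mRNAs were abundant in all 4 groups. Over the 12 libraries the median gene was at 922 FPKM (fragments scaled for transcript length and library size, so that genes can be compared), the middle 50% lay between 627 and 1476 FPKM, and 33 genes were above 1000 FPKM. Of the 100 genes with the highest mean FPKM in the whole table, 49 were among the 77. By mean CPM, which does not scale for length and so does not raise short transcripts, 12 of the top 100 were. Rplp1, a P-stalk protein that helps to recruit elongation factors, led with 4464 ± 278 FPKM in T-N2G cells with DEM, 4502.5 ± 220.4 in T-N2G cells with vehicle, 4578 ± 571 in mock cells with DEM and 4563 ± 628 in mock cells with vehicle (SD, n = 3 each). It ranked 4 among all genes, and Rps2, a 40S protein at the mRNA entry side, ranked 6 with a mean of 3196 FPKM. Rpl23a, a 60S protein at the exit of the peptide tunnel, Rps12 of the 40S subunit and Rpl28 of the 60S subunit followed with 2763, 2666 and 2435 FPKM.

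At the low end, 5 genes were below 100 FPKM. Rpl39l, a paralog of Rpl39 that is best known from testis, had 19.7 ± 1.6 FPKM in T-N2G cells with DEM, 25.4 ± 1.9 in T-N2G cells with vehicle, 21.3 ± 1.8 in mock cells with DEM and 22.6 ± 3.7 in mock cells with vehicle (SD, n = 3 each). Rpl34, Rps15a, Rpl30 and Rpl22 had means of 29.6, 50.8, 77.6 and 80.2 FPKM. In CPM, which is not scaled for transcript length, their means were 12.1, 253, 28.1 and 160. Rps15a and Rpl22 were thus low in FPKM but not in fragments, and their place depends on the length used for scaling. The levels of the 77 mRNAs thus ran between 22.2 and 4527 FPKM. Many of these genes have processed pseudogenes, and how the authors' counting treated reads that map to several places is not given in the sources used here. Of the 77 genes 75 shared at least one 50-base word of their coding transcript with another annotated gene or pseudogene, and 44 shared 50% or more of their words. The median share was 53.5%, with 92.1% for Rpl10 and 0 for Rpl39l, so levels of single genes are uncertain.

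**Figure D1:**
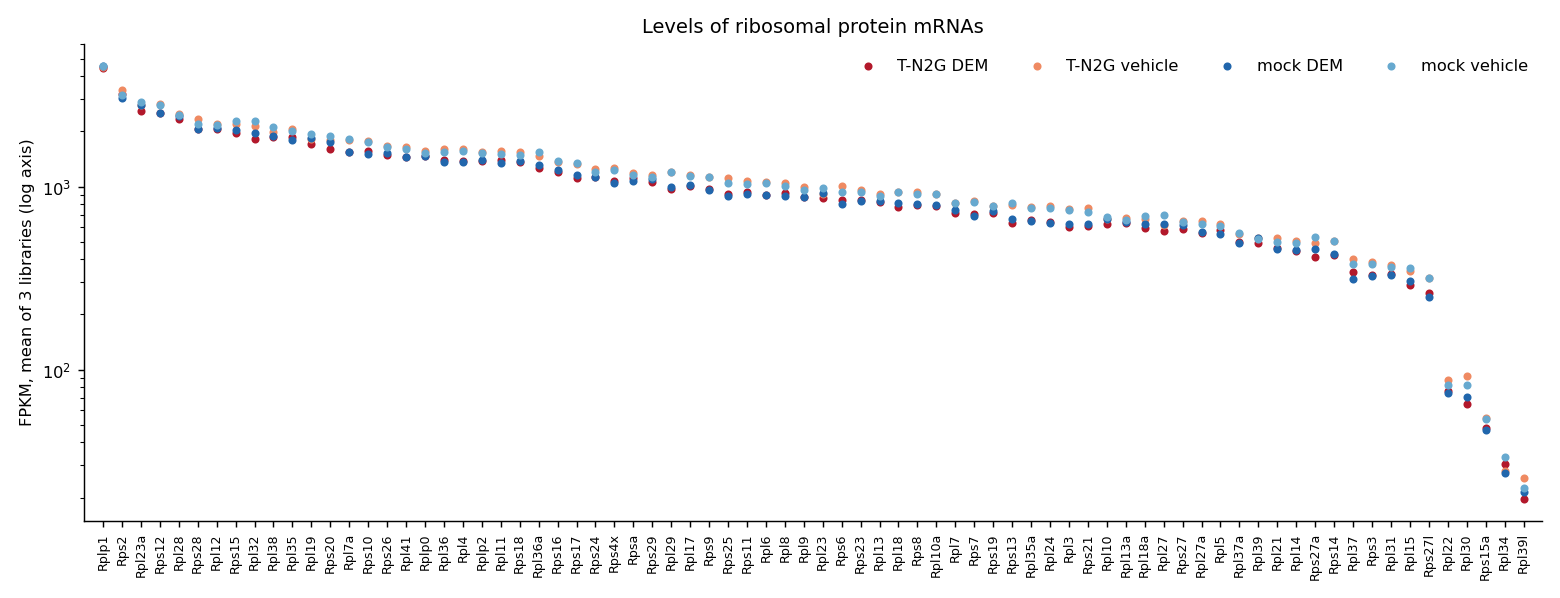
Mean FPKM of 76 of the 77 ribosomal protein genes (log axis), genes ordered from the highest to the lowest mean over all 12 libraries, with 1 point per group (mean of 3 libraries). The points of the 4 groups lie close together for each gene, while the genes run between 4527 FPKM for Rplp1 and 22.2 FPKM for Rpl39l.

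The included genes nearest to the minimum of 10 fragments were Rpl34, Rpl39l and Rpl30. Their lowest libraries held 175, 219 and 422 fragments, well above it. Below the minimum were Rpl10l, a retrogene of Rpl10 used in male germ cells, at 0 in all 12 libraries, and Rpl3l, the striated muscle paralog of Rpl3, at 0 or 1. Rps4l, at 0 to 2 fragments, was also below it. Rpl26 also fell outside. Its estimated fragments were 335, 0 and 2969 in T-N2G cells with DEM, 70.5, 37.7 and 4798 in T-N2G cells with vehicle, 69.3, 278 and 8392 in mock cells with DEM and 0, 0 and 3059 in mock cells with vehicle (replicates 1, 2 and 3). In all 4 groups the high library was replicate 3.

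Ribosomal protein mRNAs were lower with DEM in both cell populations, by a small amount that most of them shared. The median change with DEM was -11.8% in T-N2G cells and -10.4% in mock cells. No ribosomal protein mRNA was called higher with DEM in either population, without or with the block. Together the 77 genes took 4.21, 4.02 and 4.09% of all fragments in T-N2G cells with DEM, against 4.65, 4.50 and 4.71% in T-N2G cells with vehicle. They took 4.18, 4.14 and 4.22% in mock cells with DEM, against 4.73, 4.38 and 4.72% in mock cells with vehicle. In both populations each DEM library was below each vehicle library. The means were 4.11 ± 0.0986% and 4.62 ± 0.1095% in T-N2G cells with DEM and with vehicle, and 4.18 ± 0.0415% and 4.61 ± 0.195% in mock cells with DEM and with vehicle (SD, n = 3 each). The 60S genes had 2.47% with DEM and 2.78% with vehicle in T-N2G cells, and 2.54% with DEM and 2.80% with vehicle in mock cells. The 40S genes had 1.63% with DEM and 1.84% with vehicle in T-N2G cells, and 1.63% with DEM and 1.81% with vehicle in mock cells. Shares of a library are relative to all other mRNAs and do not give amounts per cell.

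**Figure D2:**
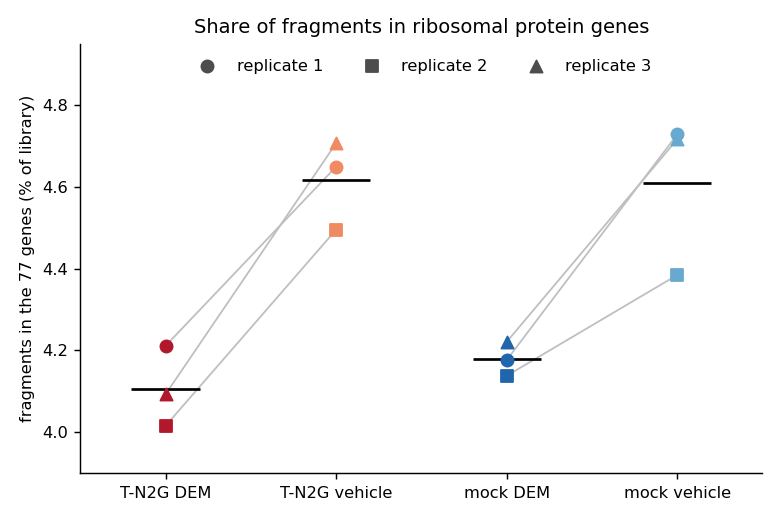
Percent of each library's fragments in the 77 ribosomal protein genes, with 1 symbol per library (shape gives the replicate), a bar for the group mean and grey lines joining libraries of the same replicate number. The y axis starts above 0. All 6 DEM libraries lie between 4.02 and 4.22% and all 6 vehicle libraries between 4.38 and 4.73%.

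In T-N2G cells 18 of the 77 mRNAs fell with DEM and none rose (edgeR quasi-likelihood test, Benjamini-Hochberg adjusted p under 0.05 over 12469 tested genes), that is 23.4%, where 7.55% of all tested genes were called lower. With the replicate block 64 (83.1%) fell, against 22.2% of all tested genes, and none rose, where 10.1% of all tested genes were called higher without the block and 22.8% with it. Among the 2475 genes with a mean of at least 100 CPM, a level that 71 of the 77 reach, 6.71% were called lower, and 23% with the block. The log2 fold change was below 0 for 76 of 77 genes, with a median of -0.18 where that of all tested genes was -0.005. In 37 genes the 3 DEM libraries were all below the 3 vehicle libraries, against 15.6% of all tested genes (no gene was apart the other way, against 18.2%), and 72 were lower in each of the 3 pairs of the same replicate number, against 35.2%.

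In mock cells 8 of the 77 mRNAs fell with DEM (10.4%, against 6.18% of all tested genes) and none rose, where 7.76% of all tested genes were called higher. With the block 57 (74.0%) fell, against 21.9% of all tested genes, and none rose, against 20.9%. Among the genes with at least 100 CPM 5.54% were called lower, and 23.2% with the block. The log2 fold change was below 0 for 75 of 77 genes with a median of -0.16, where that of all tested genes was -0.01. The libraries did not overlap in 32 genes (all lower with DEM, against 16.3% of all tested genes, and none higher, against 17.2%), and 62 were lower in each of the 3 pairs, against 34.5%. The median log2 difference was -0.22 in pair 1, -0.10 in pair 2 and -0.17 in pair 3, against -0.16, -0.18 and -0.22 in T-N2G cells.

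Both subunits held mRNAs that fell. In T-N2G cells 8 of 46 60S mRNAs (17.4%) and 10 of 31 40S mRNAs (32.3%) fell without the block, against 7.55% of all tested genes, and 36 and 28 with it (78.3% and 90.3%, against 22.2%), with median log2 fold changes of -0.18 for both. In mock cells 3 of 46 60S mRNAs (6.52%) and 5 of 31 40S mRNAs (16.1%) fell without the block, against 6.18% of all tested genes, so that the 60S share was at the background. With the block 34 and 23 fell in mock cells (73.9% and 74.2%, against 21.9%), and the medians were -0.15 and -0.17. A test of the difference between subunits was not made.

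The calls without the block depended on single libraries. Leaving out 1 library at a time changed the count of 18 in T-N2G cells. It was 11, 3 and 6 without T-N2G DEM replicate 1, 2 and 3. It was 1, 15 and 6 without T-N2G vehicle replicate 1, 2 and 3. Of the 18 genes, 9 were among those 11 and 11 among those 15. The smaller counts held only genes of the 18. The count of 8 in mock cells became 1 without any one of the mock DEM replicates. It became 0, 10 and 2 without mock vehicle replicate 1, 2 and 3, and 7 of the 8 genes were among those 10. With the block the counts stayed between 57 and 60 in T-N2G cells and between 46 and 56 in mock cells. In replicates 1 and 2 alone, 1 gene was called in T-N2G cells and none in mock cells without the block, while 55 and 49 were called with it.

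**Figure D3:**
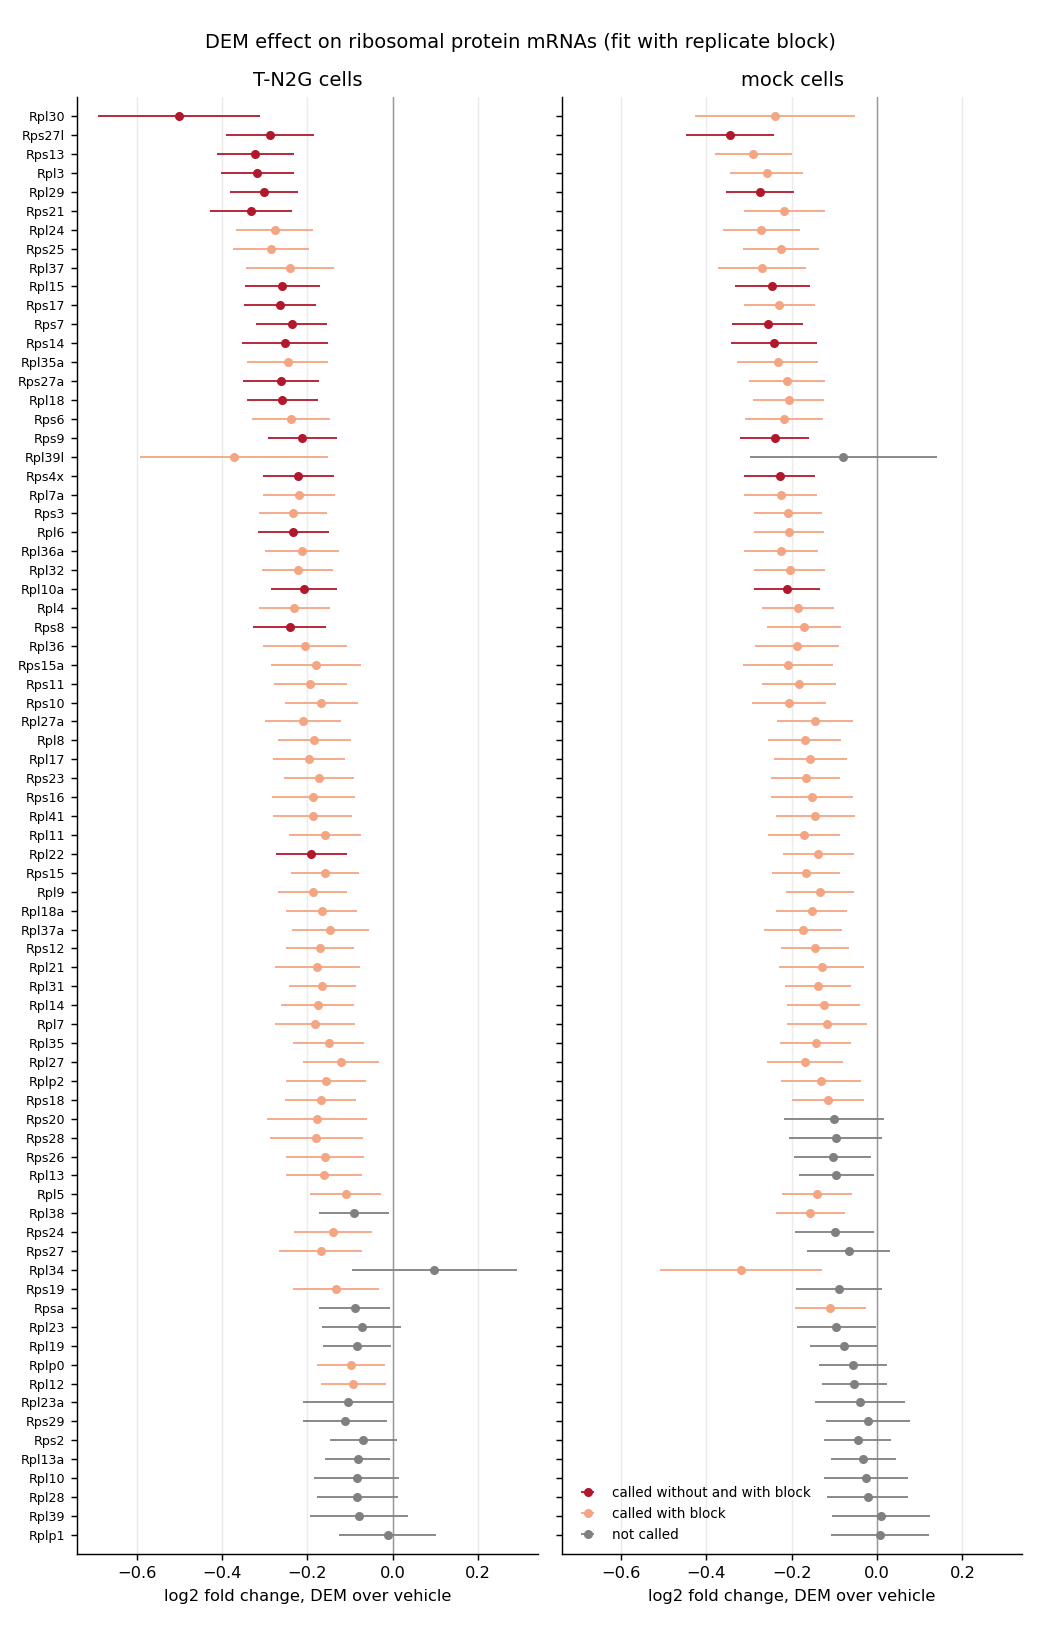
Log2 fold change of DEM over vehicle for 76 of the 77 genes in T-N2G cells (left) and mock cells (right), from the edgeR fit with the replicate block, with 95% intervals from approximate standard errors. Colours mark genes called lower without and with the block, with the block alone, or not called. Nearly all points lie below 0, and Rpl30, Rps27l and Rps13 are at the top of the order and Rplp1 and Rpl39 at the bottom.

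Rps27l, a paralog of Rps27 that is known as a p53 target, had the largest fall in mock cells. It had 69.4, 60.2 and 73.0 CPM in T-N2G cells with DEM, against 81.8, 79.4 and 85.2 CPM in T-N2G cells with vehicle. In mock cells it had 65.8, 61.7 and 66.8 CPM with DEM, against 87.8, 77.5 and 81.5 CPM with vehicle. DEM and vehicle libraries did not overlap in either population. The log2 fold changes were -0.28 ± 0.077 in T-N2G cells and -0.34 ± 0.077 in mock cells (approximate SE, n = 3 each), with edgeR adjusted p of 0.0261 and 0.0145, or 0.000154 and 3.59e-05 with the block.

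Rpl30, a 60S protein whose yeast counterpart controls the splicing of its own transcript, had the largest fall in T-N2G cells. It had 22.8, 25.02 and 22.8 CPM in T-N2G cells with DEM, against 38.8, 32.2 and 29.2 CPM in T-N2G cells with vehicle. In mock cells it had 23.6, 25.7 and 26.8 CPM with DEM, against 31.6, 27.6 and 30.8 CPM with vehicle. Groups were apart in both populations. The log2 fold change was -0.50 ± 0.10 in T-N2G cells (edgeR adjusted p = 0.00686, or 0.000242 with the block) and -0.24 ± 0.10 in mock cells (adjusted p = 0.135, or 0.0376 with the block). Its counts in the table are not whole numbers, as are those of Rpl34, Rps27 and Rps27a.

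Besides Rps27l, the genes called in both populations without the block were Rpl10a of the L1 stalk, Rpl15, Rpl29, Rps4x, Rps7, Rps9 and Rps14. All 8 genes called in mock cells were among the 18 called in T-N2G cells (100% and 44.4% of each list), and with the block 54 were called in both (94.7% of the 57 and 84.4% of the 64). The DEM comparisons of the 2 populations share no library, but they come from 1 fit and the same replicate series. Rpl10a had 498, 490.3 and 499 CPM in T-N2G cells with DEM, against 567, 548 and 603 CPM in T-N2G cells with vehicle. It had 489, 496 and 508 CPM in mock cells with DEM, against 577, 558 and 595 CPM in mock cells with vehicle. Its log2 fold change was -0.21 ± 0.054 in both populations (edgeR adjusted p of 0.022 in T-N2G and 0.0253 in mock cells).

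Rps14, a protein of the 40S platform, had 172, 161 and 169 CPM in T-N2G cells with DEM, against 203, 201 and 192 CPM in T-N2G cells with vehicle. Its mock libraries had 171, 169.7 and 161 CPM with DEM, against 212, 179 and 203 CPM with vehicle. Again no DEM library reached a vehicle library. The log2 fold changes were -0.25 ± 0.065 and -0.24 ± 0.065 in T-N2G and mock cells (edgeR adjusted p of 0.0211 and 0.0295). Rpl15, whose start carries the longest pyrimidine run shown above, had 494, 459 and 488 CPM in T-N2G cells with DEM, against 598, 555 and 572 CPM in T-N2G cells with vehicle. It had 494, 486 and 522 CPM in mock cells with DEM, against 630.0, 539 and 614 CPM in mock cells with vehicle. It fell by 16.4% in T-N2G cells and fell by 15.8% in mock cells (edgeR adjusted p of 0.0233 and 0.0339). Rps4x, the X-linked 40S gene, and Rps9 fell by 14.2% and 13.7% in T-N2G cells and by 14.6% and 15.5% in mock cells, with edgeR adjusted p of 0.0243 and 0.045 in T-N2G and 0.0257 and 0.0312 in mock cells.

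The smallest adjusted p with the block belonged to Rpl29, a 60S protein. It had 519, 453 and 511 CPM in T-N2G cells with DEM, against 623, 563 and 641 CPM in T-N2G cells with vehicle, and its log2 fold change was -0.30 ± 0.080 (edgeR adjusted p = 0.0234, or 7.19e-06 with the block). In mock cells it had 509, 483 and 525 CPM with DEM, against 621, 559 and 657 CPM with vehicle, a log2 fold change of -0.28 ± 0.080 (adjusted p = 0.0403, or 2.7e-05 with the block). Rpl3, which lies near the peptidyl transferase centre, had 709.9, 748 and 649.8 CPM in T-N2G cells with DEM, against 914, 939 and 777 CPM in T-N2G cells with vehicle. Its log2 fold change was -0.32 ± 0.085 in T-N2G cells (edgeR adjusted p = 0.0234) and -0.26 ± 0.085 in mock cells (adjusted p = 0.0632, or 8.24e-05 with the block). Rps13 followed with -0.32 ± 0.10 in T-N2G cells and -0.29 ± 0.10 in mock cells (edgeR adjusted p of 0.0472 and 0.0731, or 1.43e-05 and 5.08e-05 with the block). Rps21 had -0.33 ± 0.099 in T-N2G cells and -0.22 ± 0.099 in mock cells, with edgeR adjusted p of 0.0408 and 0.16, or 1.87e-05 and 0.00104 with the block. Rps7, a 40S protein also known to bind Mdm2, had log2 fold changes of -0.24 in T-N2G cells and -0.26 in mock cells (edgeR adjusted p of 0.0488 and 0.0421).

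Rps6, the substrate of the S6 kinases, had 989, 944 and 1122 CPM in T-N2G cells with DEM, against 1169.8, 1096 and 1343 CPM in T-N2G cells with vehicle. Its mock libraries had 974, 932 and 998 CPM with DEM, against 1164, 1037 and 1180.1 CPM with vehicle. The groups overlapped in T-N2G cells through replicate 3 of the DEM libraries, and were apart in mock cells. Its log2 fold changes of -0.24 ± 0.091 and -0.22 ± 0.091 in T-N2G and mock cells were not called without the block (edgeR adjusted p of 0.0909 and 0.129) and were called with it (0.000277 and 0.000731). Rps27a, which is made as a fusion with ubiquitin, had -0.26 ± 0.078 in T-N2G cells and -0.21 ± 0.078 in mock cells (edgeR adjusted p of 0.0375 and 0.085, or 9.64e-05 and 0.000712 with the block). Rpl22, also an RNA-binding protein outside the ribosome, had -0.19 ± 0.054 and -0.14 ± 0.054 in T-N2G and mock cells (edgeR adjusted p of 0.0295 and 0.106, or 0.000837 and 0.00977 with the block).

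Rpl5 and Rpl11, which form a complex with 5S RNA that binds Mdm2 when ribosome assembly is disturbed, were called only with the block. Rpl5 had 1080.4, 991 and 1103 CPM in T-N2G cells with DEM, against 1181, 1075 and 1170.4 CPM in T-N2G cells with vehicle, and 1018, 987 and 1023 CPM in mock cells with DEM, against 1191, 1052 and 1099.7 CPM in mock cells with vehicle. Rpl11 had 585, 486 and 564 CPM in T-N2G cells with DEM, against 621, 545 and 659 CPM in T-N2G cells with vehicle, and 539, 493 and 537 CPM in mock cells with DEM, against 625, 529.8 and 617 CPM in mock cells with vehicle. Each pair of the same replicate number was lower with DEM for both genes in both populations. The log2 fold changes of Rpl5 were -0.11 and -0.14 and those of Rpl11 -0.16 and -0.17 in T-N2G and mock cells, with edgeR adjusted p between 0.194 and 0.302 without the block and between 0.00243 and 0.03 with it. Rpsa, the 40S protein also described as a laminin receptor precursor, had -0.09 in T-N2G cells and -0.11 in mock cells (adjusted p with the block of 0.0731 and 0.0321). Rps19, which is mutated in Diamond-Blackfan anaemia in humans, had -0.13 in T-N2G cells and -0.09 in mock cells (0.0315 and 0.138 with the block). Rpl38, whose loss disturbs axial patterning in the mouse, had -0.09 in T-N2G cells and -0.16 in mock cells (0.0671 and 0.0037 with the block).

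A group of 10 mRNAs was called in neither population, without or with the block: Rplp1, Rpl39, Rpl28, Rpl10, Rpl13a, Rps2, Rps29, Rpl23a, Rpl19 and Rpl23. It holds 4 of the 5 ribosomal protein mRNAs with the highest mean FPKM. Rplp1 had 1234, 1095 and 1196 CPM in T-N2G cells with DEM, against 1206, 1127 and 1222 CPM in T-N2G cells with vehicle. Its mock libraries had 1140.2, 1094 and 1375 CPM with DEM, against 1193, 1040.0 and 1364 CPM with vehicle. The groups overlapped fully. Its log2 fold change with the block was -0.01 (95% interval -0.13 to 0.10) in T-N2G cells and 0.01 (-0.11 to 0.12) in mock cells. Of the other P-stalk mRNAs, Rplp0 had -0.10 and -0.06 in T-N2G and mock cells (edgeR adjusted p with the block of 0.0436 and 0.244), and Rplp2 had -0.16 and -0.13 (0.00888 and 0.0238 with the block). Rpl10, one of the last proteins to join the 60S subunit, had -0.08 (-0.18 to 0.02) in T-N2G cells and -0.03 (-0.13 to 0.07) in mock cells with the block. Rpl13a, also a part of a complex that silences translation of some mRNAs in human cells, had -0.08 (-0.16 to -0.01) in T-N2G cells and -0.03 (-0.11 to 0.04) in mock cells with the block.

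The size of the DEM effect varied among the genes in a similar order in both populations. Across the 77 genes, the log2 fold changes in T-N2G and mock cells had r = 0.578 and Spearman's rho = 0.752, as a description over genes that share libraries' depth and scaling within each population. With log2 mean FPKM the log2 fold change had r = 0.281 in T-N2G cells and 0.315 in mock cells over the same 77 genes, which share the reads of the same libraries. With the share of 50-base words held by other genes r was -0.015 in T-N2G cells and -0.10 in mock cells, again over 77 genes. In T-N2G cells 6 of the 33 mRNAs that shared less than 50% of their words were called lower (18.2%). Of the other 44, 12 were called lower (27.3%), against 7.55% of all tested genes. With the block the counts were 29 (87.9%) and 35 (79.5%), against 22.2%. In mock cells the counts were 3 of 33 (9.09%) and 5 of 44 (11.4%), against 6.18% of all tested genes. With the block they were 23 (69.7%) and 34 (77.3%), against 21.9%. Of the starts printed above, those of Rpl15, Rps21 and Rps6 belong to mRNAs that were called lower in both populations with the block, as does that of Rps18, which had -0.17 in T-N2G cells and -0.12 in mock cells, while that of Rpl38 belongs to one called in mock cells alone and that of Rpl28 to one called in neither.

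**Figure D4:**
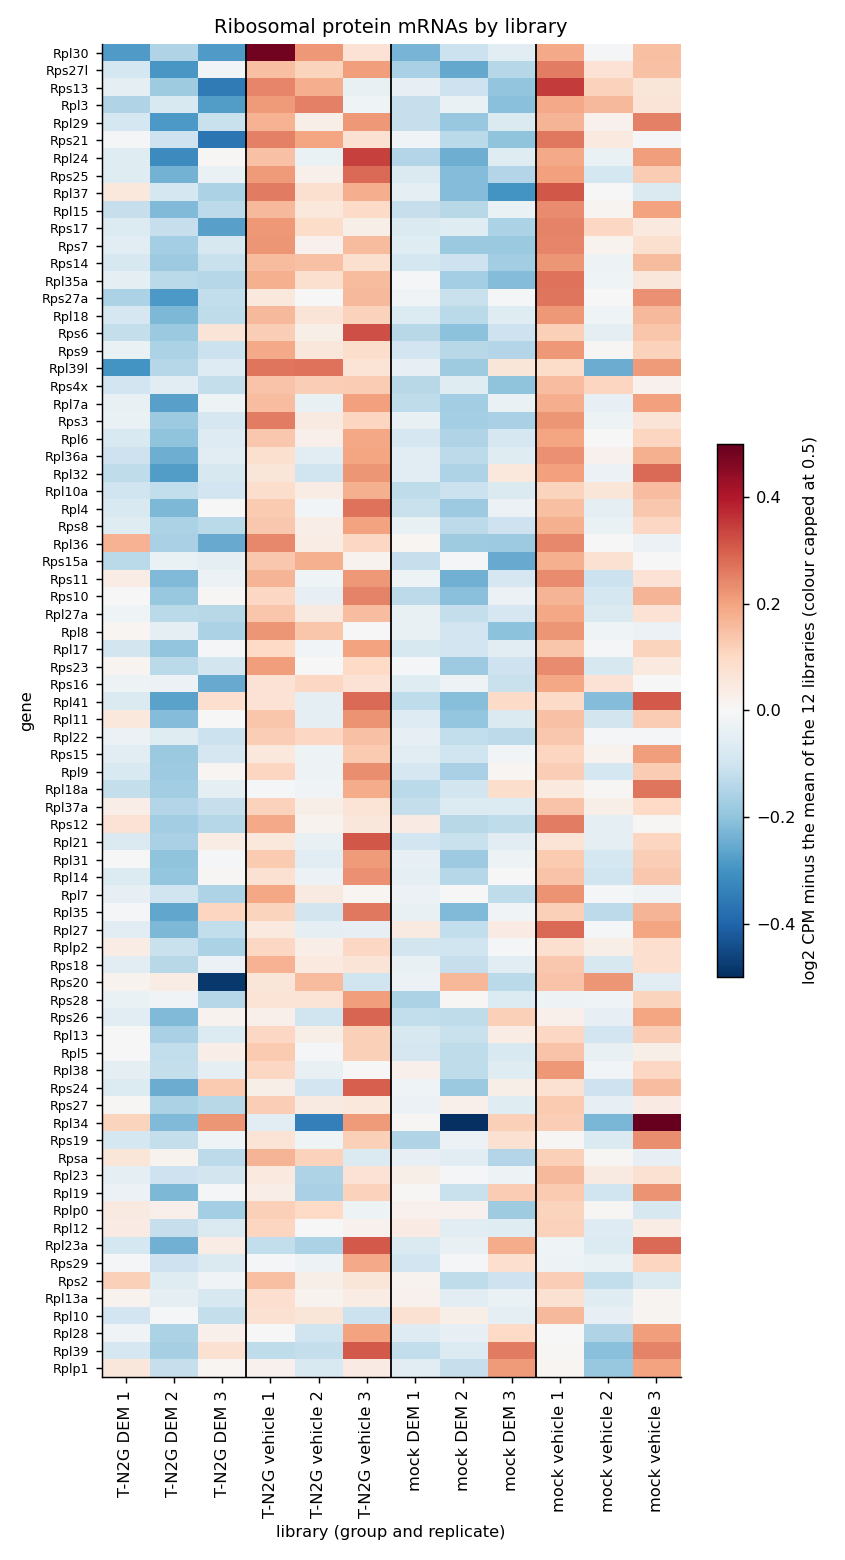
Log2 CPM of 76 of the 77 genes in each of the 12 libraries, minus the gene's mean over the 12 libraries, with genes in the order of their DEM effect (largest fall at the top) and black lines between groups. DEM columns are mostly blue (lower) and vehicle columns mostly red (higher), and replicate 3 stands out in rows such as Rpl34, Rpl39 and Rpl23a.

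Replicate 3 differed from replicates 1 and 2 in part of the genes. In 18 of the 77 genes it was above both other replicates in all 4 groups, led by Rpl34, Rpl39, Rpl23a and Rpl41 with mean log2 differences of 0.43, 0.33, 0.30 and 0.29. In 10 genes it was below both in all 4 groups, among them Rps20, Rps13 and Rps21 with -0.29, -0.20 and -0.19. For example Rpl39 had 90.6, 85.6 and 101 CPM in T-N2G cells with DEM, 87.8, 88.4 and 119 CPM in T-N2G cells with vehicle, 88.2, 91.6 and 115 CPM in mock cells with DEM and 96.4, 82.9 and 114 CPM in mock cells with vehicle. In 8 genes the shift of replicate 3 was over 0.2 on the log2 scale, which is more than the median DEM effect of the whole set.

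Between T-N2G and mock cells no ribosomal protein mRNA was called without the block, and with it 1 was called in vehicle and 1 under DEM. In vehicle few of all tested genes were called without the block, so the count of 0 there says little about these mRNAs. In vehicle 0 of the 77 were called higher or lower in T-N2G than in mock cells (edgeR quasi-likelihood test, adjusted p under 0.05), where 0.305% of all tested genes were called higher and 0.00802% lower, and 0 had an unadjusted p under 0.05. DESeq2 and limma also called 0. The median log2 fold change was 0.02, 27 genes were below 0 and 50 above, and 0 genes had groups apart, against 5.12% of all tested genes that were higher and 5.09% that were lower. With the block 1 gene, Rpl27 of the 60S subunit, was called lower, against 3.24% of all tested genes lower and 3.06% higher (log2 fold change -0.17, adjusted p = 0.0212, against 0.787 without the block). It had 344, 322 and 323 CPM in T-N2G cells with vehicle, against 404, 330.3 and 381 CPM in mock cells with vehicle. Replicate 2 of mock cells lay within the range of the T-N2G libraries, so the groups overlapped. The next smallest unadjusted p-values belonged to Rpl22 (log2 fold change 0.09 ± 0.054, edgeR adjusted p = 0.924) and Rpl23 (-0.10 ± 0.067, adjusted p = 0.934).

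Under DEM 0 of the 77 were called between T-N2G and mock cells in edgeR, where 2.61% of all tested genes were called higher and 1.11% lower, and 0 had an unadjusted p under 0.05. The median log2 fold change was -0.008, with 46 genes below 0 and 31 above, and DESeq2 and limma called 0. The groups were apart in 2 genes, both lower in T-N2G cells, against 9.35% of all tested genes lower and 10.3% higher. With the block 1 gene, Rps27a, was called lower, against 9.32% of all tested genes lower and 10.3% higher (log2 fold change -0.14, adjusted p = 0.0233, against 0.444 without the block). It had 223, 204 and 229 CPM in T-N2G cells with DEM, against 246, 230.3 and 248 CPM in mock cells with DEM, without overlap. In vehicle the same gene had 258, 249.7 and 278 CPM in T-N2G cells, against 299.8, 249 and 292 CPM in mock cells, with overlap. Rpl27 and Rpl10 followed with log2 fold changes of -0.12 ± 0.081 and -0.09 ± 0.071 (edgeR adjusted p of 0.567 and 0.631). The comparisons of T-N2G with mock cells under DEM and in vehicle share no library, but each shares its libraries with a comparison of DEM with vehicle.

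The DEM effect was not detectably different between T-N2G and mock cells for any ribosomal protein mRNA. The test of the difference called 0 of 77 without and with the block, where 0.417% of all tested genes were called higher and 0.016% lower without it and 1.82% and 0.978% with it. DESeq2 and limma called 0, and 0 genes had an unadjusted p under 0.05 without the block and 1 with it. The median difference was -0.02 on the log2 scale, with 58 genes below 0 and 19 above, against 6194 and 6275 of all tested genes. With a library left out, without or with the block, this median ran between -0.071 and 0.023. With the block the median limits of the 95% intervals were -0.15 and 0.09, so a difference of that size between the populations could be missed in a typical gene. The 3 genes with the smallest unadjusted p were Rpl30 (-0.26 ± 0.15), Rpl39l (-0.29 ± 0.18) and Rpl34 (0.41 ± 0.32), which are also among those with the fewest fragments. Rpl34 had 12.8, 10.2 and 13.8 CPM in T-N2G cells with DEM, against 11.4, 9.38 and 13.8 CPM in T-N2G cells with vehicle, and 11.9, 8.08 and 12.9 CPM in mock cells with DEM, against 12.9, 10.1 and 18.1 CPM in mock cells with vehicle. The groups overlapped in both populations. Its difference of DEM effects had an edgeR adjusted p of 0.115 with the block (95% interval 0.15 to 0.69).

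Other genes of ribosome production were read from lists of their names. Their counts of genes that fell stand against 7.55% of all tested genes in T-N2G cells and 6.18% in mock cells, or 22.2% and 21.9% with the block, and their counts of genes that rose against 10.1% and 7.76%, or 22.8% and 20.9% with the block. Of 6 further ribosomal protein genes that the name rule misses, Fau, which encodes Rps30 as a ubiquitin-like fusion, and Rpl22l1, a paralog of Rpl22, fell with DEM in T-N2G cells (log2 fold changes -0.31 ± 0.086 and -0.45 ± 0.14, edgeR adjusted p of 0.0277 and 0.0446). In mock cells 0 of the 6 were called (edgeR), and with the block 5 and 4 of 6 fell in T-N2G and mock cells. Of 20 other mRNAs known to carry a TOP motif, 5 fell in T-N2G cells (25%) and 3 in mock cells (15%), and 15 and 12 with the block (75% and 60%), with none rising. They included Naca, a chaperone of nascent chains (-0.36 ± 0.090 in T-N2G and -0.31 ± 0.090 in mock cells), and Hnrnpa1, an RNA-binding protein (-0.48 ± 0.12 and -0.43 ± 0.12). This list shares some genes, such as Fau and Eif3f, with the other lists. The medians of this list were -0.17 in T-N2G and -0.15 in mock cells.

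Of 36 translation initiation and elongation factors, 4 fell (11.1%) and 0 rose in T-N2G cells with DEM, and 3 fell (8.33%) and 1 rose in mock cells. With the block 17 fell (47.2%) and 3 rose in T-N2G cells, and 15 fell (41.7%) and 4 rose in mock cells. Those that fell in both were the eIF3 subunits Eif3f, Eif3l and Eif3m, with log2 fold changes of -0.27 ± 0.056, -0.26 ± 0.072 and -0.29 ± 0.067 in T-N2G cells and -0.26 ± 0.056, -0.32 ± 0.072 and -0.25 ± 0.067 in mock cells. Eif1, which guides start codon choice, rose in mock cells (0.31 ± 0.066, edgeR adjusted p = 0.0113) and had 0.20 ± 0.066 in T-N2G cells (adjusted p = 0.0577, or 0.00264 with the block). Of 47 ribosome biogenesis factors, 2 fell in T-N2G cells, Rrp1b (-0.63 ± 0.14) and Ddx56 (-0.41 ± 0.092), and 0 in mock cells (edgeR), which are 4.26% and 0% and below the shares of all tested genes. With the block 26 fell in T-N2G cells (55.3%) and 18 in mock cells (38.3%), with 0 and 1 rising, and the medians were -0.14 and -0.13.

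Of 19 genes of RNA polymerase I and ribosomal RNA transcription, 5 fell (26.3%) and 1 rose in T-N2G cells, and 3 fell (15.8%) and 1 rose in mock cells. With the block 9 fell (47.4%) and 1 rose in T-N2G cells, and 8 fell (42.1%) and 2 rose in mock cells. The gene that rose was Ubtf, the upstream binding factor of ribosomal DNA (0.50 ± 0.079 in T-N2G and 0.51 ± 0.079 in mock cells, edgeR adjusted p of 0.00187 and 0.00248). Taf1b, a subunit of the promoter selectivity factor, fell in both (-0.46 ± 0.12 and -0.58 ± 0.12). In the list of 15 genes of mTORC1 and S6 kinase signalling, Mlst8 and Akt1s1, both subunits of mTORC1, rose in both populations. Mlst8 had 0.45 ± 0.083 in T-N2G and 0.44 ± 0.083 in mock cells, and Akt1s1, which is an inhibitory subunit, had 0.44 ± 0.065 and 0.39 ± 0.065. No other gene of this list was called without the block, and with it 6 rose and 2 fell in T-N2G cells and 6 rose and 3 fell in mock cells. The 2 that rose without the block are 13.3% of the list in either population.

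Between T-N2G and mock cells 0 genes of these lists were called without the block (edgeR), in vehicle or under DEM, while some were with it. In vehicle 1 TOP mRNA and 1 gene of the polymerase I list were higher in T-N2G cells with the block, where 3.06% of all tested genes were higher and 3.24% lower. Under DEM 4 of the 15 mTORC1 and S6 kinase genes were lower in T-N2G cells with the block, where 9.32% of all tested genes were lower and 10.3% higher. In the same comparison 2 TOP mRNAs were higher and 2 lower, 2 biogenesis factors were higher and 1 lower, 2 translation factors and 1 gene of the polymerase I list were higher, and 1 ribosomal protein gene outside the name rule was lower. The difference of DEM effects was called with the block for 1 gene of the mTORC1 list, which was lower.

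The mitochondrial ribosomal proteins, which are also encoded in the nucleus but form the separate ribosome of mitochondria, were also lower with DEM in the median. Of 77 tested, 11 fell (14.3%) and 1 rose in T-N2G cells with DEM and 9 fell (11.7%) and 1 rose in mock cells, against 7.55% and 6.18% of all tested genes called lower. With the block 38 fell (49.4%) and 4 rose in T-N2G cells and 37 fell (48.1%) and 2 rose in mock cells, against 22.2% and 21.9% called lower. Between T-N2G and mock cells 0 were called in vehicle, without or with the block, and under DEM 0 without the block and 2 higher and 3 lower with it. The median log2 fold change was -0.15 in both populations, against -0.18 and -0.16 for the cytosolic set in T-N2G and mock cells. Their changes lay between -0.58 and 0.49 in T-N2G cells and between -0.49 and 0.46 in mock cells, against -0.50 to 0.09 and -0.34 to 0.01 for the cytosolic set. Of the 12 tested fibroblast markers 2 were called lower with DEM in T-N2G cells and 0 in mock cells without the block, and 11 lower and 1 higher in T-N2G cells and 8 lower and 1 higher in mock cells with it, whose part in the ribosomal protein result was not tested.

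**Figure D5:**
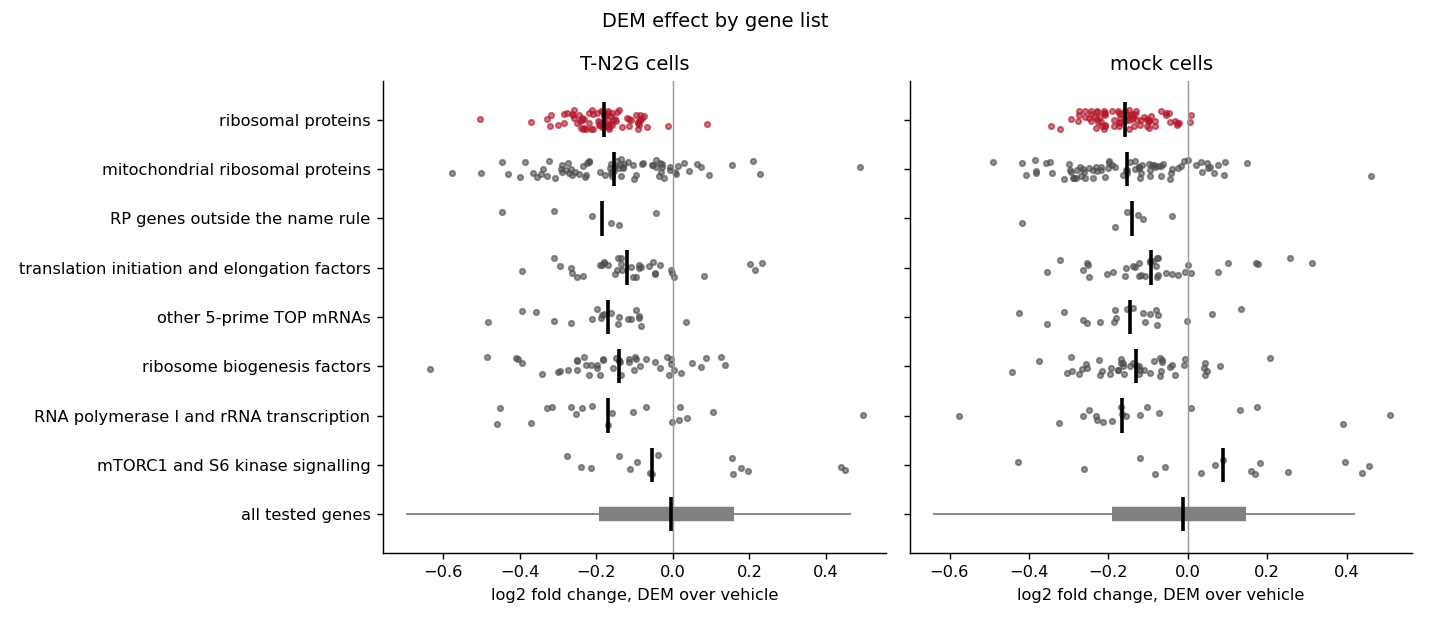
Log2 fold change of DEM over vehicle for each tested gene of 8 lists, in T-N2G cells (left) and mock cells (right), with a black bar at the median of each list. The bottom row shows all 12469 tested genes (thick bar, middle 50%; thin line, the 5th to 95th percentile). The cytosolic ribosomal proteins have medians of -0.18 and -0.16, and the median of all tested genes is near 0 in both panels.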

How the data were processed

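Polyadenylated RNA was sequenced in 12 libraries (SureSelect strand-specific kit, per the labels' protocols). The submitters' processing notes name Cuffdiff 2.1.1, genome build mm9, TopHat2 2.0.8b and bcl2fastq 2.16.0.10. The annotation, the strand setting and the handling of multiply mapped reads are not given in the sources used here. The authors deposited an estimated count of fragments per gene and library, per the file headers raw fragments, and FPKM values scaled by them for transcript length and library size. Internally and externally scaled fragments, 2 further columns, were left aside.

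Counts were rounded and fitted with edgeR 4.0.16 in R 4.3.3 (filterByExpr with a minimum count of 10 and a minimum total of 15, which left 12469 genes, all 77 members among them; TMM; quasi-likelihood fit of all 12 libraries with a coefficient per group; 5 contrasts; Benjamini-Hochberg adjustment over all tested genes). The common biological coefficient of variation came to 0.11 (8 residual degrees of freedom) and, under the replicate block, to 0.0428 (6). Standard errors were derived from the F statistics and are approximate. CPM used effective library sizes. The fit without the block was tested on simulated counts with known changes, all larger than the median DEM effect seen here. The fit with the block was not tested in this way.

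Replicate numbers come from the sample titles, which do not say what they stand for. Deviations from group means correlated with r between 0.361 and 0.631 in the 18 pairs of libraries of the same number, so the numbers pair the samples. In the 36 other pairs r lay between -0.422 and -0.00363. Deviations within a group sum to 0, which pushes these values below 0, so they are not separate evidence of the pairing. Counts of calls are given without and with the block.

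Members and lists were chosen with earlier results of these data known. All members are counted, and 1 of them is not reported singly here. Named are the 5 most and 3 least abundant by mean FPKM, a set of well-known proteins and those nearest the fragment minimum. Also named are up to 6 called per contrast by adjusted p and the 3 smallest p where none was called. Up to 4 called with the block and up to 3 per further list were added. Rps29, Rpl19, Rpl39, Rpl41, Rps20 and Rps18, and Eif3m and Eif1 in the cell population where the rule does not reach them, were named after their values were seen. Alternatives were other scalings, no filter, DESeq2 1.42.0, limma 3.58.1 on log2(FPKM + 1) and log2(FPKM + 0.1), single libraries left out, and replicates 1 and 2 alone. Shared 50-base words were counted in GENCODE M21 transcripts. The background of genes with at least 100 CPM, the split by shared words and leaving out libraries with the block were added after seeing the data.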

Additional observations from a re-analysis of the deposited data

How the results depend on the processing

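No alternative called a member higher, and none turned the median log2 fold change of the DEM effect, which lay between -0.19 and -0.16 in T-N2G cells and between -0.16 and -0.15 in mock cells over all alternatives but the left-out libraries. Leaving out single libraries gave medians between -0.24 and -0.15 in T-N2G cells and between -0.21 and -0.13 in mock cells. The number of members called lower with DEM depended on the fit. In T-N2G cells it was 18, 64 with the replicate block, 9 and 8 with limma on log2(FPKM + 1) and log2(FPKM + 0.1), 1 in replicates 1 and 2 alone and 55 in these with the block, and 1 to 15 with a library left out (57 to 60 with the block). In mock cells it was 8, 57 with the block, 14 with library totals in place of TMM, 2 with no filter on low counts, 17 with DESeq2, 2 with either limma fit, 0 in replicates 1 and 2 alone and 49 in these with the block, and 0 to 10 with a library left out (46 to 56 with the block). Members called lower in T-N2G than in mock cells were 0, and with the block 1 in vehicle and 1 under DEM (0 to 1 and 0 to 2 with a library left out). The block changed no call of the difference of DEM effects. Medians of T-N2G over mock cells ran between -0.035 and 0.060 in vehicle and between -0.042 and 0.014 under DEM with a library left out. With a library left out, the log2 fold change of DEM changed sign for 4 of the 77 members in T-N2G cells and for 9 in mock cells. In T-N2G cells Rpl23a ran between -0.21 and 0.045, Rpl34 between -0.046 and 0.23, Rpl39 between -0.17 and 0.065 and Rplp1 between -0.054 and 0.034. In mock cells Rpl10 ran between -0.068 and 0.029, Rpl23a between -0.13 and 0.071, Rpl28 between -0.11 and 0.070, Rpl39 between -0.12 and 0.13, Rpl39l between -0.20 and 0.017, Rplp0 between -0.10 and 0.013, Rplp1 between -0.10 and 0.11, Rps2 between -0.097 and 0.024 and Rps29 between -0.065 and 0.021. In replicates 1 and 2 alone Rpl28 was at 0.020 in mock cells, and at 0.023 with the block. The causes were not tested. No scaling moved the median of all genes by over 0.03. Counts near 200 fragments per library limit Rpl34 and Rpl39l.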
